A study of Mus musculus with 33 samples.

Results

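The genes of cell cycle and DNA replication were followed here in mouse liver under 3 diets, as a test of whether hepatocytes divide more on an agonist of PPARα. The set holds 41 genes, chosen by name with earlier results of these data known. A probe set belonged to the set if the platform annotation gave that gene and no other. Of the 41 genes, 40 were measured, by 93 of the 45037 probe sets that are not array controls, out of 18193 named genes. Ccnb1 was not analysed here. One Affymetrix whole-genome mouse array was hybridised per liver, for 33 male C57BL/6J mice 17 weeks old. The 10 control mice ate a diet in which sunflower oil, with 81.3% oleic acid, gave 7% of the energy. The 12 fenofibrate mice ate the same oil at 7% of energy plus fenofibrate, a drug that activates the nuclear receptor PPARα, at 0.03% by weight. The 11 fish oil mice ate fish oil with 23.1% EPA and 21.1% DHA at 7% of energy in place of the sunflower oil. Each diet lasted 2 weeks, the mice lived 2 to a cage, and food was withheld between 7:00 and 13:00 before the livers were removed. RNA integrity numbers were above 8. The RNA came from whole liver, so hepatocytes and all other liver cells were measured together.

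A dividing cell passes through G1, copies its DNA in S phase and separates the copies in mitosis. Cyclin D with Cdk4 opens G1, cyclin E with Cdk2 carries the cell into S phase, and p21 and p27 hold these kinases back. The MCM proteins form the ring-shaped helicase that is loaded on origins and unwinds DNA, while enzymes such as ribonucleotide reductase supply the nucleotides. Most hepatocytes of an adult liver are quiescent, and in rodents PPARα agonists are known to enlarge the liver and to drive hepatocyte division.

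The drug showed on its known targets: Ehhadh, a peroxisomal enzyme of fatty acid oxidation, was 2.39 ± 0.18 higher (log2, ± SE) on fenofibrate than on control diet. Cyp4a14, which oxidises fatty acids at their far end, was 2.89 ± 0.46 higher on fenofibrate and 2.48 ± 0.47 higher on fish oil. Of 5 such targets tested in limma, 5 were higher on fenofibrate and 4 on fish oil than on control diet. Of all genes tested, 22% and 7.53% were higher in these comparisons. Some arrays stood apart from their diet before any gene of the set was considered. The median absolute deviation from the diet's mean over all genes tested was 0.197 (log2) for control replicate 1, 0.167 for control replicate 2, 0.165 for control replicate 9, 0.171 for fenofibrate replicate 11 and 0.200 for fish oil replicate 9, against 0.0849 to 0.140 in the other 28 arrays. Calls in the set that change without these 3 control arrays are given both ways below. No fit left out fenofibrate replicate 11 and fish oil replicate 9 together with them. Such changes therefore come from leaving out arrays of the control diet only.

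Levels are on the authors' GCRMA log2 scale, on which the median of each array lay between 2.90 and 2.97. Each gene is described by its brightest probe set, and a level of one gene cannot be set against that of another, since probes differ in brightness. Over all arrays the mean reached log2 4 in 22 of 40 genes. By diet, 23 genes did so on fenofibrate and 21 on each of the other diets. In 15 genes every array was at 4 or more, and in 14 no array was. At a level of 3 the mean was reached by 29 genes, and at 5 by 16. By probe set, 39 of 93 had a mean of at least 4.

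Above log2 4 in all 33 arrays were cyclins D1, D2 and D3, Cdk2, Cdk4, Cdkn1b, Cdkn2c, Mcm6, Mcm7, Cdt1, Pcna, Rfc4, Rrm1, Rrm2 and Dut. None of the 9 mitosis genes (Top2a, Mki67, Bub1, Bub1b, Cdc20, Aurka, Aurkb, Plk1 and Birc5) reached it in any array. Cdk1, the kinase that starts mitosis, reached it in 1 control, 3 fenofibrate and 2 fish oil arrays, and Ccna2 and Ccnb2 in none. Among replication genes, Mcm2 reached it in 3 arrays and Lig1 and Tyms in none, and E2f1 reached it in none. For tests, a probe set had to reach 4 in at least 10 of the 33 arrays, whichever they were. That left 23 of the 40 genes. Ccne1, with 15 such arrays, lay nearest inside this threshold, and Cdk1, with 6, nearest outside. Cdkn1a (9 fenofibrate arrays of 16) and Ccne1 (8 of 15) would not have passed without the fenofibrate arrays.

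**Figure D1:**
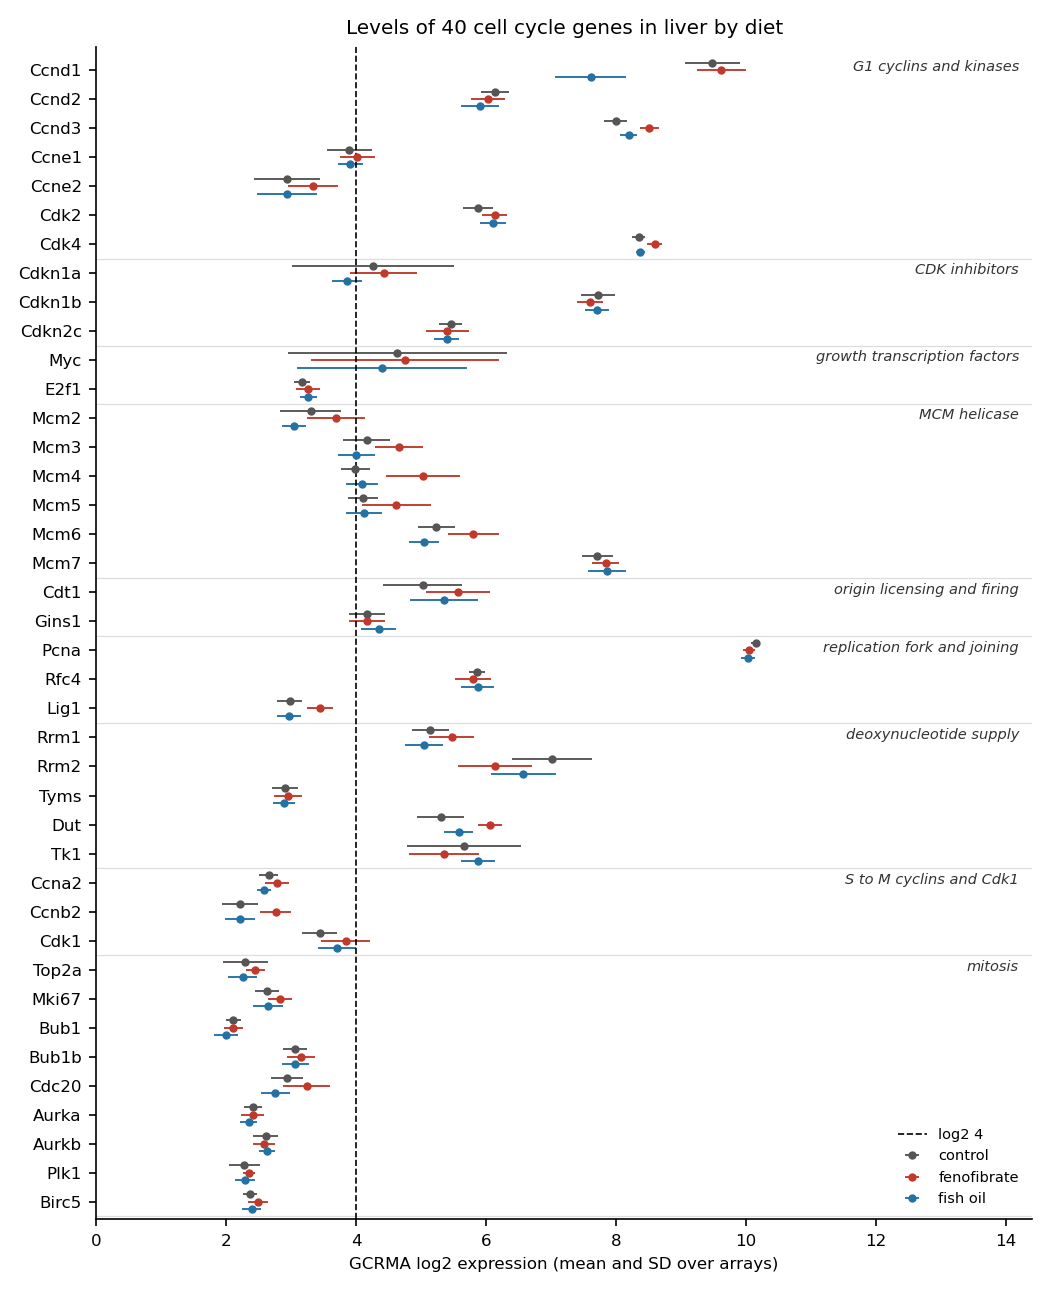
Mean GCRMA log2 expression of the 40 measured genes by diet, grouped by role; points are means and bars are SD over 10 control, 12 fenofibrate and 11 fish oil arrays, and the dashed line marks log2 4. The mitosis genes all lie left of the line, Ccnd1 is lowest on fish oil, and Mcm3 to Mcm6 are highest on fenofibrate.

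The first comparison asks what fenofibrate did to these genes. On fenofibrate 10 of the 23 genes past the filter were higher than on control diet and 2 were lower, at an adjusted p under 0.05 in limma, and 11 did not pass the test. Of all 9005 genes tested, 22% were higher and 18.9% lower in the same comparison, so the lower count is below the background share and the higher count above it. The set was chosen with earlier results of these data known, so these shares are a description and not a test. The median difference was 0.14 (log2) over the 23 genes and -0.00 over all genes. Genes that rose were the G1 genes Ccnd3, Cdk4 and Cdk2, the helicase genes Mcm3, Mcm4, Mcm5 and Mcm6, the licensing factor Cdt1, and the nucleotide genes Dut and Rrm1. Genes that fell were Rrm2 and Pcna. Without the filter on level, 11 of the 40 measured genes were higher and 1 lower, against 11.7% and 10% of 18193 genes. Leaving out control replicates 1, 2 and 9 gave 8 higher and 3 lower among the 23.

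**Figure D2:**
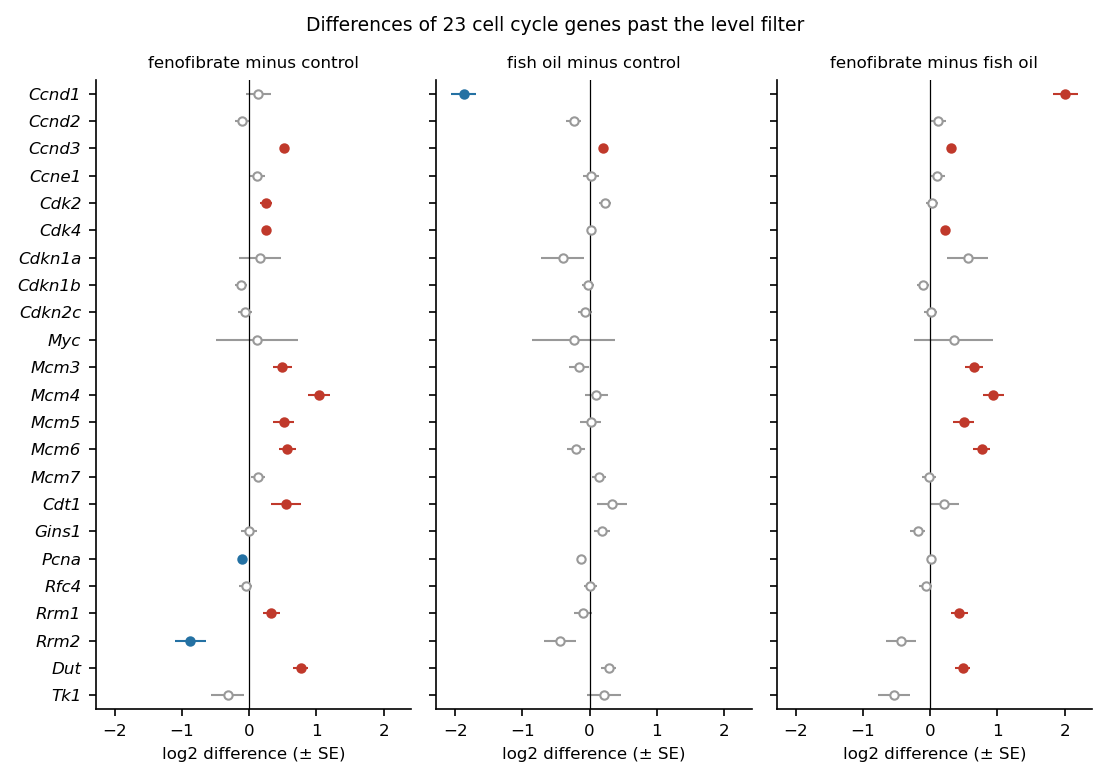
Log2 differences between diets (x axis, ± SE from limma) for the 23 genes past the level filter; filled red points are higher and filled blue points lower at an adjusted p under 0.05, and open grey points did not pass. Red points outnumber blue ones in both panels with fenofibrate, and the panel of fish oil against control holds 2 called genes, Ccnd1 far to the left and Ccnd3.

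Among the G1 cyclins and kinases, Ccnd3, one of 3 D cyclins, was above the control mean in all 12 fenofibrate arrays. Its level spanned 7.79 to 8.38 on control diet (median 7.94), 8.34 to 8.83 on fenofibrate (median 8.48) and 7.99 to 8.48 on fish oil (median 8.15). The 2 highest controls were replicates 9 and 1, and 10 of 12 fenofibrate arrays exceeded every control array. The difference of fenofibrate from control was 0.52 ± 0.07 (adjusted p = 1.27e-07), which is 1.43-fold. The second, dimmer probe set of Ccnd3 did not show it (-0.10 ± 0.19, adjusted p = 0.737), and with the mean of both the difference was 0.21 (adjusted p = 0.0674).

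Cdk4, the kinase partner of the D cyclins, ran from 8.16 to 8.48 on control diet (median 8.36) and from 8.32 to 8.75 on fenofibrate (median 8.64). On fish oil it ran from 8.26 to 8.48 (median 8.38), within the control range but for 1 array. The rise on fenofibrate was small, 0.24 ± 0.05 (adjusted p = 5.65e-05), and 10 of 12 arrays were above every control. All 3 probe sets of Cdk4 rose, by 0.24, 0.33 and 0.19, while 19.6% of the 17162 probe sets past the filter were higher and 17% lower on fenofibrate, and 8.31% and 7.07% of all 45037. Cdk2, the partner of cyclin E, was 0.26 ± 0.09 higher (adjusted p = 0.0193), with only 3 of 12 fenofibrate arrays above the control range of 5.49 to 6.17. Its adjusted p was 0.0559 in the fit with no filter and without control replicates 1, 2 and 9.

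Ccnd1, the D cyclin most often followed in liver regeneration, did not pass the test on fenofibrate. Its level ran from 8.69 to 10.29 on control diet (median 9.53) and from 9.04 to 10.17 on fenofibrate (median 9.53), and the difference was 0.14 ± 0.19 (adjusted p = 0.588). Ccnd2 stood at -0.11 ± 0.11 (adjusted p = 0.459) by its brightest probe set, whereas 2 of its 3 other probe sets past the filter were lower on fenofibrate, by -0.31 (adjusted p = 0.0174) and -0.38 (adjusted p = 0.00454). Ccne1, an E cyclin, stood at 0.12 ± 0.12 (adjusted p = 0.421). Ccne2, below log2 4, went from a mean of 2.93 to 3.33 (adjusted p = 0.118 without the filter).

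None of the 3 kinase inhibitors passed the test on fenofibrate (limma, unadjusted p under 0.05 in 0 of 3, against 25.5% of all genes higher and 22.4% lower). For Cdkn1a, which encodes p21, this rested on 1 control array. Control replicate 1 stood at 7.51 and the other 9 controls between 3.28 and 5.09, while fenofibrate arrays ran from 3.66 to 5.30 (median 4.45). The difference was 0.17 ± 0.31 (adjusted p = 0.705) with that array and 0.53 ± 0.19 (adjusted p = 0.0253) without it. It was 0.75 ± 0.17 (adjusted p = 0.000805) without control replicates 1, 2 and 9. Cdkn1a passed the level filter only with the fenofibrate arrays counted, so these values are given as a description only. Cdkn1b, which encodes p27, stood at -0.13 ± 0.09 (adjusted p = 0.277, and 0.037 with array weights) and Cdkn2c, which encodes p18, at -0.06 ± 0.10.

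Myc, a growth transcription factor, was the most variable gene of the set, with an SD of 1.30 to 1.69 within a diet. On all 3 diets most arrays lay between 2.95 and 5.50. Above that range were control replicates 1, 9 and 10 at 7.98, 6.39 and 6.24, fenofibrate replicates 10 and 11 at 8.43 and 7.01 and fish oil replicate 11 at 7.92. High arrays thus occurred on every diet, and the difference of fenofibrate from control was 0.12 ± 0.60 (adjusted p = 0.896). E2f1, the transcription factor that switches on S-phase genes, stayed between 2.88 and 3.49 in all 33 arrays.

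Of the 6 genes of the MCM helicase 5 were tested, and 4 of these rose on fenofibrate, against 22% of all genes. These were Mcm3, Mcm4, Mcm5 and Mcm6, while Mcm7 did not pass the test and Mcm2 lay under the level filter. Mcm4 ran from 3.55 to 4.34 on control diet (median 3.95), from 4.29 to 5.96 on fenofibrate (median 5.10) and from 3.51 to 4.34 on fish oil (median 4.15). Every control array was exceeded by 10 of 12 fenofibrate arrays, and fenofibrate replicates 2 and 7, at 4.33 and 4.29, fell within the control range. The difference from control was 1.04 ± 0.16 (adjusted p = 3.73e-06), or 2.06-fold, and the second probe set gave 0.99 ± 0.18.

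Mcm6 ran from 4.79 to 5.68 in the controls (median 5.24), from 5.11 to 6.44 on fenofibrate (median 5.81) and from 4.65 to 5.43 on fish oil (median 5.01). It was 0.57 ± 0.13 higher on fenofibrate (adjusted p = 0.000653), with 7 of 12 arrays above the controls. Its second probe set gave 0.32 ± 0.15 (adjusted p = 0.0984). Mcm3 ran from 3.62 to 4.72 on control diet (median 4.12) and from 4.14 to 5.30 on fenofibrate (median 4.71), a difference of 0.50 ± 0.14 (adjusted p = 0.00499). The diets overlapped, with 6 of 12 fenofibrate arrays above the highest control.

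Mcm5 ran from 3.75 to 4.37 on control diet (median 4.18) and from 3.59 to 5.45 on fenofibrate (median 4.72). The difference was 0.51 ± 0.16 (adjusted p = 0.00874), and 0.43 ± 0.18 (adjusted p = 0.0523) without control replicates 1, 2 and 9. The fenofibrate arrays were wider apart than the controls in both Mcm4 (SD 0.57 against 0.22) and Mcm5 (SD 0.53 against 0.23). Fenofibrate replicate 4 was the highest of the 12 in Mcm2, Mcm4, Mcm5 and Mcm6, while replicate 7 was the lowest in Mcm4 and Mcm5. Mcm7 was above log2 7 in every array and stood at 0.13 ± 0.10 (adjusted p = 0.351), and its 3 other probe sets at 0.12, -0.02 and 0.20 did not pass either.

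Promoter sequences of 3 of the 4 helicase genes that rose on fenofibrate are shown, because E2F, the factor family that cyclin D and Cdk4 set free, is known to act on MCM promoters. They are the 160 bases before the RefSeq transcription start, on the gene's own strand, in GRCm38.p6. Capitals mark an E2F site, searched as TTTCCCGC, TTTGGCGC, TTTCGCGC or TTTGCCGC on both strands, and sites that overlap run together.
Mcm3, chr1:20820313-20820472, minus strand: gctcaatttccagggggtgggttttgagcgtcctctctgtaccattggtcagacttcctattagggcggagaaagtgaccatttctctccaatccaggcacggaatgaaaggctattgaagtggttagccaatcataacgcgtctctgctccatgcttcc
Mcm5, chr8:75109349-75109508, plus strand: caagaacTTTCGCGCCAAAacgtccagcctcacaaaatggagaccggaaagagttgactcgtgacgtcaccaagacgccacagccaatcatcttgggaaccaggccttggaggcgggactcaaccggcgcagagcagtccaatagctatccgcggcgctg
Mcm6, chr1:128359706-128359865, minus strand: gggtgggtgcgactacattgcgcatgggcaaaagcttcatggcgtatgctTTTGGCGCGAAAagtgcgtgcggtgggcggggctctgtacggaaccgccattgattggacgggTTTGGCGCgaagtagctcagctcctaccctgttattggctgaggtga
Mcm6 held 3 matches, 2 of them overlapping, Mcm5 held 2 that overlap, and Mcm3 held none.

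The 33 genes of the set with a promoter window had 39 windows. In the full 250 bases before the start, 5 of these 39 windows held such a match (Cdk1, Cdk2, Mcm5, Mcm6 and Mcm7), against 1.86% of 32851 windows of all genes. Mcm7, with a match in one of its 2 windows, did not pass the test on fenofibrate, and Mcm3 rose without a match. CCAAT, the letters of a box bound by NF-Y, was present on either strand in 22 of the 39 windows (21 of the 33 genes) and in 33.8% of all windows. Mcm3, Mcm5 and Mcm6 held 3, 2 and 2 copies. TTTGAA, the letters of the CHR element of genes switched on before mitosis, was present in 6 of the 39 windows (Ccnb2, Cdc20, Cdk1, Mcm2, Mki67 and Top2a) and in 5252 of the 32851 windows. CACGTG, the E-box read by Myc, was present in 2 of the 39 windows (Cdk4 and Tyms) and in 6.02% of all windows. A match of letters is a description of sequence and not a measured site, and a missing match says only that these letters are not in this window.

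**Figure D3:**
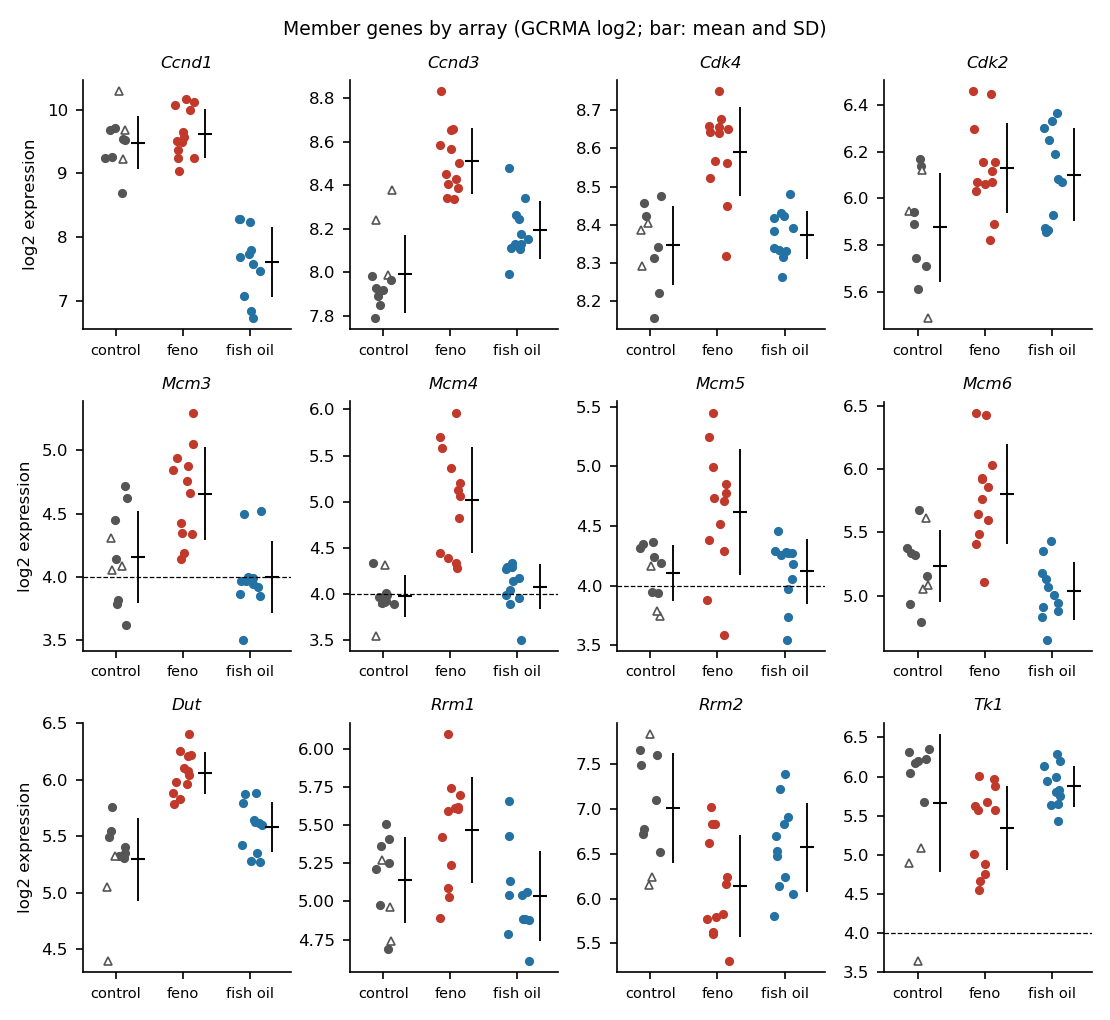
GCRMA log2 expression of 12 genes of the set, 1 point per array, by diet (control, fenofibrate as feno, fish oil); open triangles are control replicates 1, 2 and 9, and the bars beside the points are mean and SD. The dashed line, where in range, is log2 4. Ccnd1 separates fish oil from both other diets, Dut separates fenofibrate from control, and the 3 marked arrays are the lowest controls in Tk1.

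Of the genes for loading and firing origins, Cdt1, which loads the helicase, was 0.55 ± 0.22 higher on fenofibrate (adjusted p = 0.0478). This call lay at the threshold: control arrays ran from 4.26 to 5.86 and fenofibrate arrays from 4.52 to 6.17, and leaving out control replicate 1 gave 0.47 (adjusted p of 0.0964), and leaving out control replicates 1, 2 and 9 gave 0.45 ± 0.23 (adjusted p of 0.115). The call was lost in 20 of 33 fits that left out 1 array, those without control replicates 1, 5, 6, 9 or 10, fenofibrate replicates 3 to 12, or fish oil replicates 1 to 4 or 9. Gins1, a helicase subunit that joins at firing, stood at -0.00 ± 0.11. At the fork, Pcna, the clamp of the DNA polymerases, was bright and steady, from 9.99 to 10.24 on control diet and from 9.91 to 10.29 on fenofibrate. It fell by 0.11 ± 0.04 (adjusted p = 0.0452), and the call was lost in 15 of 33 fits that left out 1 array, those without control replicates 1, 3 to 7 or 10, or fenofibrate replicates 1 to 4, 6, 7, 11 or 12 (adjusted p up to 0.0826). Rfc4, a subunit of the loader of that clamp, stood at -0.05 ± 0.10 by its brightest probe set and rose by 0.48 ± 0.13 (adjusted p = 0.00305) by its other one. Lig1, which joins the fragments of the lagging strand, is given with the dim genes below.

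Genes of deoxynucleotide supply went both ways on fenofibrate. Dut, which removes dUTP and so keeps uracil out of DNA, ran from 4.40 to 5.76 on control diet (median 5.34), from 5.78 to 6.40 on fenofibrate (median 6.06) and from 5.27 to 5.88 on fish oil (median 5.62). All 12 fenofibrate arrays were above all 10 controls, a separation seen in 3.58% of the 9005 genes for genes higher on fenofibrate. The lowest control was replicate 1. The difference was 0.77 ± 0.11 (adjusted p = 8.93e-07), or 1.70-fold. Rrm1, the large subunit of ribonucleotide reductase, was 0.33 ± 0.13 higher (adjusted p = 0.039), and 0.27 ± 0.14 without control replicates 1, 2 and 9 (adjusted p = 0.138). Leaving out 1 array ended the Rrm1 call in 11 of 33 fits, those without control replicates 1, 2, 8 or 10, or fenofibrate replicates 3 to 5 or 7 to 10 (adjusted p up to 0.0852). The Rrm1, Cdt1 and Pcna calls on fenofibrate were also lost with consecutive label numbers as a random block (adjusted p = 0.0756, 0.081 and 0.0875).

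Rrm2, the small subunit of the same enzyme and in dividing cells the one that limits it, fell on fenofibrate. It ran from 6.15 to 7.83 on control diet (median 6.94), from 5.30 to 7.02 on fenofibrate (median 5.99) and from 5.80 to 7.39 on fish oil (median 6.53). The diets overlapped, and 6 of 12 fenofibrate arrays lay under every control. The difference was -0.87 ± 0.23 (adjusted p = 0.00258), and both other probe sets were also lower, by -0.54 and -0.40. Rrm2 also moved with the number that the array labels carry. Controls 7 to 10 (7.49 to 7.83), fenofibrate replicates 9 to 12 (6.62 to 7.02) and fish oil replicates 10 and 11 (7.39 and 7.22) were the highest of their diets, and all carry label numbers of 23 or more. Fish oil replicate 9, numbered 28, stood lower, at 6.14. Within diets the fitted slope of Rrm2 was 0.43 (log2) per 10 label numbers. The slopes next largest against their error were Cdkn1b at 0.12, Mcm7 at -0.12, Tk1 at 0.26 and Myc at 0.51. With the label number as a covariate the difference of Rrm2 between fenofibrate and control was -0.72 ± 0.15 (adjusted p = 0.000192). What the label number stands for is not stated.

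Tk1, the salvage enzyme thymidine kinase, was another gene on which the 3 control arrays bore. They stood at 3.64, 5.08 and 4.90 (replicates 1, 2 and 9), and the other 7 controls between 5.68 and 6.35, while fenofibrate arrays ran from 4.55 to 6.01 (median 5.57). The difference was -0.32 ± 0.25 (adjusted p = 0.32) with all arrays, -0.54 ± 0.20 (adjusted p = 0.0262) without control replicate 1, and -0.80 ± 0.18 (adjusted p = 0.000593) without all 3. Tyms, thymidylate synthase, stayed between 2.48 and 3.23 in all arrays by its brightest probe set, and 1 dimmer probe set was lower on fenofibrate (-0.20, adjusted p = 0.0477 over all probe sets).

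The 17 measured genes outside the level filter, from G1, replication, nucleotide supply and mitosis, were tested without it. Most of their values lie below GCRMA log2 4. On fenofibrate 3 of the 17 measured genes outside the filter were higher than on control diet (Lig1, Ccnb2 and Cdk1) and 0 were lower in limma, against 3.73% and 3.47% of the 9188 genes outside the filter. At an unadjusted p under 0.05, 8 of the 17 were higher and 0 lower, against 7.09% and 8.77% of the same 9188 genes. Lig1 ran from 2.59 to 3.21 on control diet (median 3.04), from 3.03 to 3.69 on fenofibrate (median 3.49) and from 2.67 to 3.21 on fish oil (median 2.97). The controls were all exceeded by 11 of 12 fenofibrate arrays, and the difference was 0.47 ± 0.08 (adjusted p = 3.27e-05). Ccnb2, a B cyclin that drives mitosis with Cdk1, ran from 1.89 to 2.86 on control diet (median 2.14) and from 2.42 to 3.24 on fenofibrate (median 2.75). The difference was 0.55 ± 0.10 (adjusted p = 9.87e-05), and the highest control, at 2.86, was replicate 9. Cdk1 ran from 3.20 to 4.01 on control diet (median 3.35) and from 3.18 to 4.67 on fenofibrate (median 3.80), a difference of 0.40 ± 0.13 (adjusted p = 0.0228). All 3 calls were kept without control replicates 1, 2 and 9, at 0.36, 0.62 and 0.50.

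None of the 9 mitosis genes passed the test between fenofibrate and control in limma, and 3 were higher at an unadjusted p under 0.05 (Mki67, Cdc20 and Birc5), as were 7.09% of the dim genes. Mki67, the gene of the proliferation marker Ki-67, had means of 2.62 ± 0.18 (SD, n = 10) on control diet and 2.83 ± 0.19 (SD, n = 12) on fenofibrate, a difference of 0.21 ± 0.09 (adjusted p = 0.0839 in limma). It passed without fenofibrate replicate 2 and without fish oil replicate 11 (adjusted p down to 0.0321). Top2a, the topoisomerase of dividing cells, stood at 0.15 ± 0.10 (adjusted p = 0.342), and Plk1, Aurka, Aurkb, Bub1, Bub1b and Birc5 between -0.03 and 0.13. Cdc20, which activates the complex that ends mitosis, stood at 0.30 ± 0.12 (adjusted p = 0.0608), and at 0.37 (adjusted p = 0.0321) without the 3 control arrays. It also passed without control replicates 2 or 9, or fenofibrate replicates 7, 8, 9 or 10 (adjusted p down to 0.0232). A dimmer probe set of Cdc20 passed the test over all probe sets (0.37, adjusted p = 0.00313), as did one of Bub1b (0.24, adjusted p = 0.006) and one of Ccna2 (0.20, adjusted p = 0.0296). Mcm2 stood at 0.39 ± 0.16 (adjusted p = 0.0709), with control replicates 1 and 2 the highest of the controls at 4.36 and 3.78, and at 0.58 ± 0.15 (adjusted p = 0.0033) without replicates 1, 2 and 9. Mcm2 also passed without control replicates 1 or 2, or fenofibrate replicates 2 or 7 (adjusted p down to 0.00651).

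**Figure D4:**
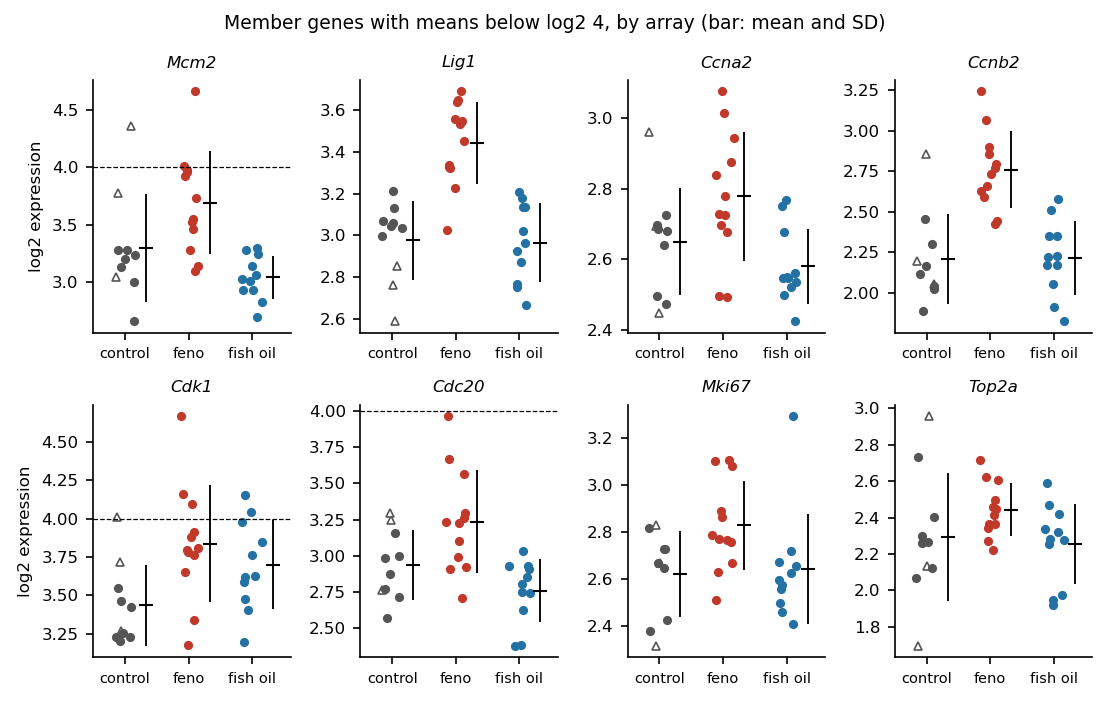
GCRMA log2 expression of 8 genes whose means were below log2 4 on every diet, 1 point per array; open triangles are control replicates 1, 2 and 9, bars are mean and SD, and the dashed line, where in range, is log2 4. Lig1 and Ccnb2 are shifted up on fenofibrate, while Mki67 and Top2a overlap on all 3 diets.

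On fish oil few genes of the set passed the test, and Ccnd1 differed most from control. A gene that did not pass may still have changed. Against control diet 1 of the 23 genes past the filter was higher and 1 lower in limma, and 21 did not pass, against 7.53% and 7% of all 9005 genes. Without the filter 0 of 40 were higher and 1 lower, against 3.11% and 3.06% of 18193 genes. Ccnd1 ran from 6.73 to 8.29 on fish oil (median 7.68), so that all 11 fish oil arrays lay under the lowest control at 8.69 and under the lowest fenofibrate array at 9.04. The difference from control was -1.87 ± 0.19 (adjusted p = 1.08e-08), or 3.66-fold lower, and 0.677% of all genes were lower on fish oil with no overlap. Its 3 probe sets all fell, by -1.87, -1.81 and -1.94, while 6.23% of the 17162 probe sets past the filter were higher and 5.34% lower on fish oil, and 1.91% and 1.8% of all 45037. Among the fish oil arrays replicates 7 and 8, at 6.73 and 6.84, were the lowest.

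The other D cyclins did not share that fall by their brightest probe sets. Ccnd3 was 0.20 ± 0.07 higher on fish oil (adjusted p = 0.0428), a call lost without control replicates 2 to 8 or 10, or fish oil replicates 2, 4, 5, 7, 9 or 10 (adjusted p up to 0.0838). With the mean of its probe sets it stood at 0.11 ± 0.10 (adjusted p = 0.499), and 7 other alternatives, no filter and median centring among them, ended the call too. Ccnd2 stood at -0.23 ± 0.11 (adjusted p = 0.171), but with the mean of its probe sets it was called lower (adjusted p = 0.0251 in limma). One dimmer probe set of Ccnd2 was lower on fish oil by -0.43 ± 0.11 (adjusted p = 0.00608). Cdk4, the partner of the D cyclins, stood at 0.03 ± 0.05, and Cdk2 at 0.23 ± 0.09 (adjusted p = 0.0896). The helicase genes stood between -0.26 and 0.14 and none passed by its brightest probe set, although the second probe set of Mcm6 was lower by -0.58 ± 0.15 (adjusted p = 0.0108). With the mean of its probe sets Mcm6 was called lower too (adjusted p = 0.0307 in limma). Pcna stood at -0.12 ± 0.04 (adjusted p = 0.0568) and passed without control replicate 2, fish oil replicates 3 or 4, or fenofibrate replicate 8 (adjusted p down to 0.0307). Without control replicates 1, 2 and 9 it stood at -0.14 ± 0.05 (adjusted p = 0.047). Dut stood at 0.28 ± 0.11 (adjusted p = 0.0889) and passed without control replicate 5 (adjusted p = 0.0424). The dimmest probe set of Rrm2 was lower on fish oil (-0.45, adjusted p = 0.0388 over all probe sets), while its brightest stood at -0.44 ± 0.23 (adjusted p = 0.229). None of the 17 dim genes was called on fish oil in limma without the filter, where 0.403% of dim genes were higher and 0.795% lower. At an unadjusted p under 0.05 it was 0 of 17, against 2.69% of dim genes higher and 4.92% lower.

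Fenofibrate against fish oil, the third comparison, uses the same fenofibrate and fish oil arrays as the others. Of the 23 genes, 9 were higher on fenofibrate, 0 were lower and 14 did not pass in limma, against 19.8% and 19.1% of all genes. At an unadjusted p under 0.05 there were 9 higher and 1 lower, against 23.2% and 23.5% of all genes. Without the filter 14 of 40 were higher and 0 lower, against 10.9% and 9.48% of 18193 genes. Ccnd1 was 2.01 ± 0.18 higher (adjusted p = 8.66e-11), or 4.03-fold, with no overlap between the diets, as were 4.09% of all genes. The helicase genes were higher by 0.94 ± 0.16 (Mcm4), 0.77 ± 0.13 (Mcm6), 0.65 ± 0.14 (Mcm3) and 0.50 ± 0.15 (Mcm5), with adjusted p between 1.01e-05 and 0.00948. In both Mcm4 and Mcm6, 10 of 12 fenofibrate arrays exceeded every fish oil array. All 3 probe sets of Cdk4 were higher on fenofibrate, by 0.22, 0.39 and 0.28, as were 17.4% of probe sets past the filter against 17.1% lower, and 7.7% and 6.86% of all 45037. Dut (0.48 ± 0.11), Rrm1 (0.43 ± 0.13), Ccnd3 (0.32 ± 0.07) and Cdk4 (0.22 ± 0.04) were higher too, although Ccnd3 stood at 0.10 (adjusted p = 0.385) with the mean of its probe sets.

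Of the dim genes, 5 of 17 were higher on fenofibrate than on fish oil without the filter and 0 lower, against 3.89% and 2.55% of the 9188 dim genes. The 5 were Mcm2 (0.65 ± 0.15, adjusted p = 0.0017), Ccnb2 (0.54 ± 0.10), Cdc20 (0.48 ± 0.11, adjusted p = 0.00169), Lig1 (0.48 ± 0.08) and the A cyclin Ccna2 (0.20 ± 0.06, adjusted p = 0.023). At an unadjusted p under 0.05, 7 were higher (Mki67 and Ccne2 besides these) and 0 lower, against 8.22% and 6.72% of dim genes. All 5 were also called without control replicates 1, 2 and 9. Without fish oil replicate 11, Mki67 and Ccne2 passed too (adjusted p = 0.0091 and 0.0273). Mcm2 ran from 3.10 to 4.66 on fenofibrate (median 3.64) and from 2.70 to 3.29 on fish oil (median 3.03), and 9 of 12 fenofibrate arrays were above all fish oil arrays. Tk1 stood at -0.53 ± 0.24 (adjusted p = 0.0763) and Cdkn1a at 0.56 ± 0.31 (adjusted p = 0.146). Both passed without control replicate 1 (adjusted p = 0.0215 and 0.0124), which enters this comparison through the shared estimate of the spread. Both also passed without control replicates 1, 2 and 9 (adjusted p = 0.00675 and 0.00346). For Cdkn1a this is a description only, since it passed the level filter only with the fenofibrate arrays counted.

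Wider lists of the same processes, also chosen with earlier results of these data known, were counted in the same way. Of 163 further cell cycle genes, 158 had a probe set and 95 passed the filter, and of these 30 were higher and 11 lower on fenofibrate than on control diet, against 22% and 18.9% of all genes. Among 33 other DNA replication genes 10 rose and 3 fell. Rpa3, a subunit of the single-strand binding protein, rose by 0.59 ± 0.10, the origin recognition subunit Orc5 by 0.54 ± 0.08 and the helicase partner Gins4 by 0.46 ± 0.06. Mcm10, which helps to start the helicase, fell by 0.64 ± 0.10 on the log2 scale, from a control range of 10.52 to 11.06 to a fenofibrate range of 9.86 to 10.47.

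Among 11 other mitosis genes past the filter, of 44 measured, 5 rose and 2 fell on fenofibrate, the latter near the 18.9% of all genes that were lower. Without the filter 9 of the 44 were higher and 2 lower, against 11.7% and 10% of all genes. Spc25, a kinetochore subunit, was higher in every fenofibrate array than in any control, as were 3.58% of the 9005 genes. It ran from 5.13 to 8.00 on control diet (median 7.00), from 8.91 to 9.72 on fenofibrate (median 9.15) and from 5.88 to 8.29 on fish oil (median 7.87), and the difference from control was 2.41 ± 0.29 (adjusted p = 2.84e-08). Mad2l1, a checkpoint protein of mitosis, rose by 1.00 ± 0.14 from a control range of 3.55 to 4.54 to a fenofibrate range of 4.68 to 5.92. Ccnf, cyclin F, fell by 1.38 ± 0.15 on the log2 scale, with controls between 6.73 and 7.79 and fenofibrate arrays between 4.68 and 6.21. The share of all genes lower on fenofibrate with no overlap is not given here, for Ccnf or for Mcm10. The checkpoint gene Bub3 fell by 0.31 ± 0.05. Spc25, Mad2l1, Ccnf and Bub3 kept their calls when any 1 array, or control replicates 1, 2 and 9 together, were left out.

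Of 31 other regulators of G1, 12 rose and 5 fell on fenofibrate, against 22% and 18.9% of all genes. The E2F partner Tfdp1 rose by 0.55 ± 0.07, cyclin G2 (Ccng2) by 0.71 ± 0.11, E2f3 by 0.54 ± 0.09 and cyclin G1 (Ccng1) by 0.47 ± 0.07. Among 20 p53 targets and growth arrest genes 3 rose and 1 fell, both below the shares of all genes: Gadd45b, a stress gene that PPARα agonists are known to induce in liver, rose by 0.92 ± 0.12, Gas6 by 0.45 ± 0.10 and Perp by 0.35 ± 0.05, and Tob2 fell by 0.34 ± 0.13. Without control replicate 3, or without fenofibrate replicate 7, Tob2 lost its call (at most 0.0596, adjusted).

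On fish oil 8 of the 95 genes were higher and 5 lower than on control diet, against 7.53% and 7% of all genes. Tfdp1 rose by 0.42 ± 0.08, Stmn1, a microtubule regulator of mitosis, by 0.50 ± 0.11, E2f3 by 0.33 ± 0.09 and the condensin subunit Smc4 by 0.26 ± 0.07. Btg2, an antiproliferative p53 target, fell by 0.84 ± 0.18, Gas6 by 0.66 ± 0.10 and Mycl by 0.58 ± 0.11 on the log2 scale. Rfc3 (0.51), Gins4 (0.21), Pole4 (-0.27), Max (-0.29) and Perp (0.16) were called too, and each lost its call when some single array was left out, with adjusted p up to 0.0717, 0.0573, 0.0575, 0.051 and 0.106. Control replicate 1 was among those arrays for all of these but Max, which lost its call without control replicate 5.

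Between fenofibrate and fish oil 27 of the 95 were higher on fenofibrate and 13 lower, against 19.8% and 19.1% of all genes. Gas6 did not overlap between these diets, with 7.68 to 8.59 on fenofibrate and 6.57 to 7.32 on fish oil (1.12 ± 0.10, adjusted p = 3.65e-11). Of all genes, 4.09% were higher on fenofibrate with no overlap. Spc25 (1.59 ± 0.28), Mad2l1 (0.95 ± 0.14), Ccng2 (0.71 ± 0.11), Gadd45b (0.70 ± 0.12), Pold2 (0.57 ± 0.12), Gas2 (0.51 ± 0.11), Rpa3 (0.49 ± 0.09), Orc5 (0.37 ± 0.08), Mxd4 (0.32 ± 0.05) and Perp (0.19 ± 0.05) were higher on fenofibrate. Ccnf (-1.24 ± 0.14), Mcm10 (-0.85 ± 0.10), Tfdp2 (-0.56 ± 0.10), Mga (-0.47 ± 0.07) and Bub3 (-0.18 ± 0.05) were lower.

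**Figure D5:**
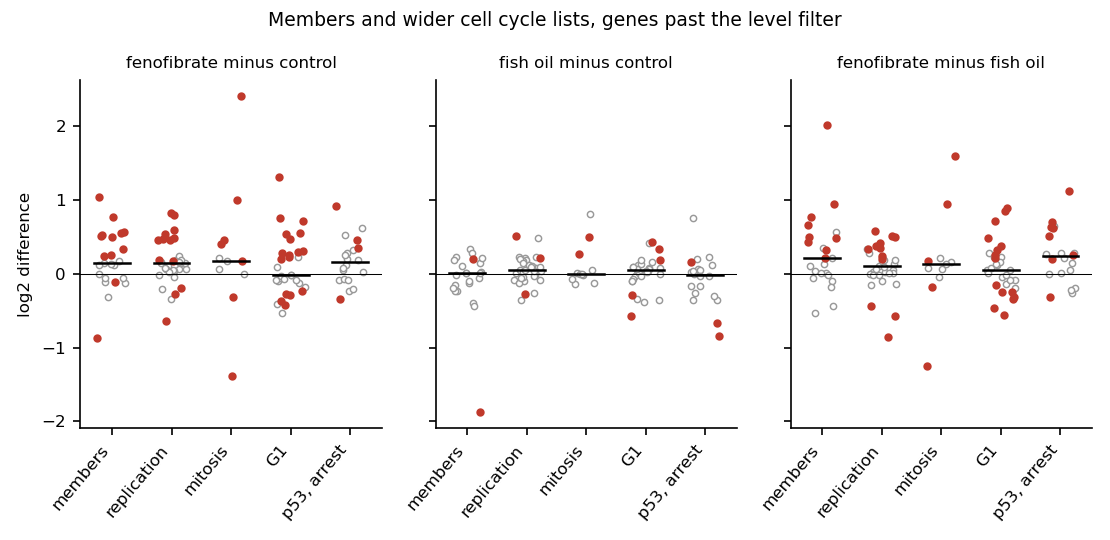
Log2 differences between diets for the 23 genes of the set and for 4 wider lists (x axis: 33 replication, 11 mitosis, 31 G1 and 20 p53 or arrest genes), 1 point per gene past the level filter; red points were called at an adjusted p under 0.05 in limma and the black bar is the median of the list. Both comparisons with fenofibrate hold many red points on either side of 0, and the comparison of fish oil with control holds few.

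Whole liver holds cells that divide more readily than hepatocytes, so markers of other cells were read on the same arrays, and in such samples fewer cells of a type and less RNA per cell cannot be told apart. For the marker counts, the shares of all genes were 22% higher and 18.9% lower on fenofibrate, and 7.53% higher and 7% lower on fish oil. Of 9 hepatocyte markers, 6 were lower on fenofibrate and 3 on fish oil than on control diet, and the mean log2 over the list ran from 13.67 to 13.83 on control diet, from 13.38 to 13.63 on fenofibrate and from 13.54 to 13.77 on fish oil. Of 9 Kupffer cell markers 2 were lower on fenofibrate, near the share of all genes, with list means of 8.73 to 9.39 on control diet, 8.15 to 9.64 on fenofibrate and 8.48 to 9.53 on fish oil. Of 8 markers of sinusoidal endothelium 1 was higher and 2 lower on fenofibrate and 3 were lower on fish oil, with list means of 7.70 to 7.97, 7.63 to 7.97 and 7.46 to 7.70. Of 6 stellate cell markers past the filter 1 was higher and 4 lower on fenofibrate, with list means of 7.25 to 7.68 on control diet, 7.17 to 7.56 on fenofibrate and 7.25 to 7.53 on fish oil.

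Many markers that define blood and duct cells did not reach log2 4. The T and B cell genes Cd3e, Cd3g, Cd3d, Cd79a, Ms4a1 and Cd8a, the neutrophil precursor genes Ngp, Camp, Ltf, Elane and Mpo, and the duct genes Krt19, Krt7, Epcam and Cftr were below log2 4 in every array. Lymphocyte list means ran from 3.28 to 3.63 on control diet, from 3.24 to 3.44 on fenofibrate and from 3.28 to 3.68 on fish oil. Neutrophil list means ran from 2.41 to 3.87, from 2.45 to 3.10 and from 2.37 to 4.05, and cholangiocyte list means from 2.83 to 3.11, from 2.82 to 3.15 and from 2.83 to 3.21. Erythroid list means ran from 3.88 to 4.22, from 3.49 to 4.24 and from 4.01 to 4.26. Only 1 erythroid gene passed the filter, and it was lower on fenofibrate than on control diet. Without the filter 1 of 5 erythroid and 1 of 8 lymphocyte genes were lower in that comparison, against 10% of 18193 genes. The part of hepatocyte, Kupffer, endothelial and stellate cells in the differences of the cell cycle genes was not tested.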

How the data were processed

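The submitters' processing notes name GCRMA 2.24.1, and the deposited log2 values, 1 for each probe set and array, were used without change. GCRMA corrects background by probe sequence and equalises arrays, so values near background depend on that correction and array medians are nearly equal. Precision is limited by how many arrays each diet has. Probe sets with log2 of at least 4 in at least 10 of 33 arrays were kept, each gene was taken from its brightest one (highest mean of the 33 arrays), and 9005 genes were fitted with limma 3.58.1 (statmod 1.5.0, R 4.3.3), in 1 model of 3 diets. Tests were two-sided with Benjamini-Hochberg adjustment over all genes tested, and a gene was called at an adjusted p under 0.05. Dim genes come from the same fit over all 18193 named genes, and other probe sets from fits over all probe sets. Of the probe sets, 34945 carried 1 gene, 932 several and 9160 none in the platform annotation. Promoters are RefSeq windows of GRCm38.p6. Each array is a mouse of its own, and which mice shared a cage is not stated. Replicate numbers do not pair the mice (correlation of deviations between same-numbered arrays of different diets -0.21 to 0.35, median 0.05). Arrays of 1 diet with consecutive label numbers deviated more alike (-0.17 to 0.42, median 0.14). Other arrays of the same diet had -0.51 to 0.34, median -0.13. With consecutive label numbers as a random block the shared correlation was 0.23, while the main fit treats arrays as independent. The fit was tested on simulated data in which arrays were independent, so that test cannot show how the shared correlation affects the calls.

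The members and lists were chosen with earlier results of these data known. The text names all members, other probe sets with another call or sign, up to 4 called genes with the smallest adjusted p from each wider list and comparison, and Ehhadh and Cyp4a14 as checks of the drug. Alternatives were the filter, the centring, the probe set rule, the variance model, array weights, blocks and arrays left out. Those added after seeing the data are the unfiltered fits without control replicates 1, 2 and 9 or with label pairs, and the label number as a covariate.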

Additional observations from a re-analysis of the deposited data

Results flagged for a closer look

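In the control group, the array farthest from the others was compared with the range of the 10 arrays for each of the 40 genes, and 3 genes stood out. Cdkn1a was 7.51 in control replicate 1, with the other 9 controls between 3.28 and 5.09. Dut was 4.40 in control replicate 1, with the others between 5.05 and 5.76. Pcna was 9.99 in control replicate 2, with the others between 10.11 and 10.24. Chance alone flags about 1 in 20 groups. The check was run on the control group only, so no array in the groups of 12 and 11 could be flagged.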

How the results depend on the processing

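For fish oil against control, where 2 genes of the set were called, the count was 1 with no filter, with every probe set, with only the 2 groups compared, with consecutive label numbers as a random block (with the filter and without), and without the arrays whose label carries the letter A, and 4 with array weights. With the mean of a gene's probe sets the fish oil count was 3, with 0 higher and 3 lower, against 1 and 1 in the main fit. Between fenofibrate and fish oil, 9 were called, 14 with no filter, 16 with no filter and without control replicates 1, 2 and 9, and 14 with no filter and consecutive label numbers as a block. On fenofibrate against control, 12 were called and 9 with consecutive label numbers as a block, without Rrm1, Cdt1 and Pcna. For the wider lists on fish oil, 13 were called, 7 with consecutive label numbers as a block and 8 with that block and no filter. Leaving out each array in turn gave 9 to 12 genes of the set on fenofibrate, 1 to 3 on fish oil and 9 to 11 between them, and 38 to 43, 9 to 15 and 34 to 43 for the wider lists. Rfc4 on fenofibrate changed sign with the mean of its probe sets (0.21, adjusted p = 0.0499), by construction since its 2 probe sets differ. With the replicate block the set had 10, 3 and 11 calls; Cdk2 (adjusted p = 0.051), Cdt1 and Pcna were lost on fenofibrate, Cdkn1b was gained (-0.17, adjusted p = 0.0344) and Rrm2 gained on fish oil (-0.52, adjusted p = 0.0176), and Rrm2 and Tk1 were gained between fenofibrate and fish oil. Replicate numbers mark no shared animal or day in the labels. With the label number as a covariate the counts were 12, 2 and 10. Differences of genes under log2 4 lie close to the array background.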
